A study of Mus musculus with 6 samples.

Results

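The genes described here encode the enzymes of the tricarboxylic acid (TCA) cycle, the pyruvate dehydrogenase complex, the other enzyme complexes that carry lipoic acid, the proteins that make and attach that cofactor, and the enzymes through which carbon enters and leaves the cycle. They were taken by gene symbol from a fixed list, and each of the 37 symbols had 1 row among the 25407 gene rows of the deposited table. The cycle oxidises acetyl groups in mitochondria and passes their electrons to the respiratory chain. Pyruvate dehydrogenase, 2-oxoglutarate dehydrogenase, the branched-chain complex and the glycine cleavage system each hold a protein with a lipoyl arm, which is built on the protein in steps that need an iron-sulfur enzyme and reduced ferredoxin. In cuproptosis, a form of cell death caused by excess copper, copper is known to bind these lipoyl arms, and genes for lipoyl synthesis and for lipoylated enzymes were found to be needed for the death. A set of 7 members (Fdx1, Lias, Lipt1, Dlat, Dlst, Dld and Gcsh) is called the cuproptosis genes below and is set against the other 30. The other 30 also include genes of lipoyl synthesis and of lipoylated enzymes, among them Lipt2, Pdha1, Pdhb and Pdhx. They are therefore not a set unrelated to cuproptosis.

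RNA was measured in 3 control and 3 treated libraries of CT26.WT, a line grown from a carcinoma of the mouse colon. The treated cells had received the nanoparticle Cu2O@AuMn@HA, whose name lists copper oxide, gold and manganese, with NaHS, which releases hydrogen sulfide, and irradiation in the near infrared (NIR). The labels leave unstated what the control cells received, the doses, the time of harvest and whether the libraries of a group are separate cultures, so p-values measure only how far these samples spread, and that spread may be technical. The parts of the treatment were not given singly, and their effects cannot be told apart.

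The libraries held 62328377 to 81821380 estimated counts, and the row with the fewest counts among the 37 genes had 74 to 282. The share of counts from ribosomal RNA was 3.62% to 3.94% in the controls and 0.251% to 0.260% after treatment, and that from the mitochondrial genome was 1.25% to 1.86% and 1.96% to 3.45%, highest in treated 2. The keratin gene Krt18 stood at 65.4 ± 5.94 and 163 ± 9.97 FPKM (mean ± SD, n = 3), and the 7 epithelial markers summed to 65.8 to 76.0 and 162 to 184 FPKM, while Epcam and Cdh1 were under 0.1 FPKM in each library, as were 3 leukocyte and 4 endothelial markers. Of the 5 fibroblast markers, Lum was under 0.1 FPKM, and their summed level ranged from 41.2 to 44.5 FPKM without and from 20.1 to 22.3 FPKM with treatment. Col1a1 and Col3a1 carried the lower sum, while Dcn rose from 0.191 ± 0.0261 to 0.925 ± 0.106 FPKM and Pdgfra stood at 0.626 ± 0.0921 and 0.719 ± 0.0817 FPKM. The part of these differences in the results below was not tested.

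Most of the genes that changed were lower in treated cells. FPKM, the unit of the levels below, gives fragments scaled to transcript length and to library size. Summed over the 37 genes it was 1445, 1479 and 1439 in the control libraries and 1212, 1203 and 1205 in the treated ones, which was 17.0% lower on average, with no overlap between groups. Abundant genes weigh most in this sum. Mdh2 went from a mean of 197 to 125 FPKM, Got2 from 113 to 66.7 and Cs from 106 to 66.3. Bckdha, in the other direction, went from 35.8 to 65.4 FPKM. In bulk RNA, fewer cells with a transcript and less of it per cell cannot be told apart. All 37 genes passed the filter on low counts and were tested with edgeR's quasi-likelihood test, with Benjamini-Hochberg adjustment over 16212 rows, and passed at an adjusted p under 0.05. Of the 37, 18 fell, 5 rose and 14 did not pass. Over all tested rows 46.6% were called, 23.5% lower and 23.0% higher. Most of the 37 genes are well expressed, and among tested rows with a mean of at least 1 FPKM 59.1% were called, 33.4% lower and 25.7% higher, so the share of the 37 called in either direction (62.2%) was near that background. The split of directions was 48.6% lower and 13.5% higher. The median log2 fold change, treated over control, was −0.26 over the 37 genes and 0.06 over all tested rows. Over tested rows with a mean of at least 1 FPKM it was −0.06. With upper quartile scaling, which moved the median of all tested rows by 0.12, 6 of the 37 rose and 12 fell, where 4688 of all rows rose and 3028 fell, against 3735 and 3813 with the main scaling. Ogdh, Sucla2 and Dld changed at least 2-fold, as did 15.1% of all tested rows. The FPKM values of the groups did not overlap for 26 of the 37 genes, 19 of them lower and 7 higher after treatment, against 57.5% of tested rows, 27.1% lower and 30.4% higher.

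**Figure D1:**
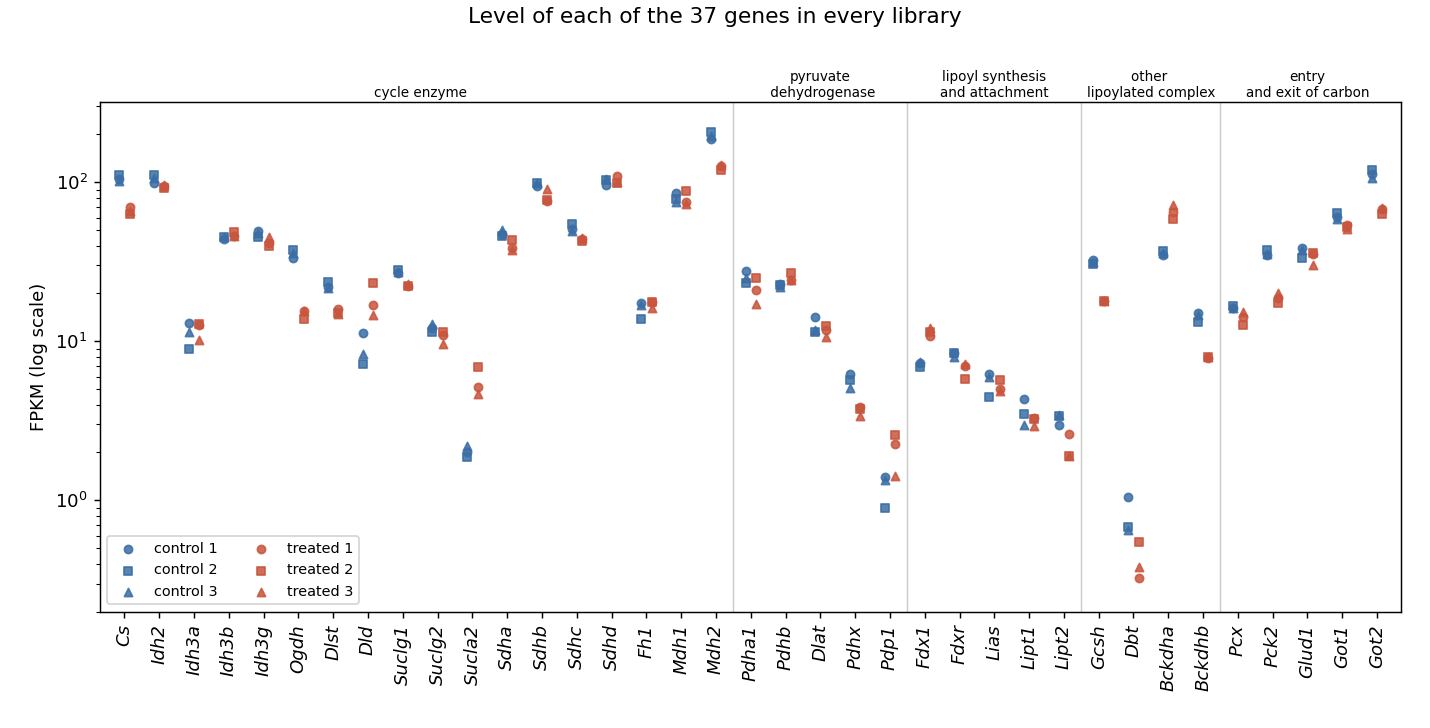
FPKM of each gene on a log scale in the 3 control (blue) and 3 treated (red) libraries, with a marker shape for each library number and the genes ordered by role. Mdh2 is the most abundant in both groups, at a mean of 197 FPKM in control and 125 in treated libraries, and Dbt the least, at 0.792 and 0.416.

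The 7 cuproptosis genes split between directions: Dld and Fdx1 rose, Gcsh and Dlst fell, and Dlat, Lias and Lipt1 did not pass. Dld encodes dihydrolipoyl dehydrogenase, the flavoprotein that reoxidises the lipoyl arm in each of the lipoylated complexes. Its transcript stood at 11.3, 7.21 and 8.34 FPKM in control and 17.0, 23.4 and 14.6 FPKM in treated libraries. The groups did not overlap, but treated 2 stood above the other treated libraries and control 1 above the other controls. The log2 fold change of Dld was 1.002 ± 0.18 (SE, edgeR adjusted p = 0.00135) and ran from 0.78 without treated 2 to 1.16 without control 1. With a correction for GC content, described below, it was 0.45, which is under 2-fold. Fdx1, a ferredoxin that gives electrons to lipoyl synthase and a lead gene of cuproptosis screens, rose more evenly. Fdx1 was at 7.28, 6.88 and 7.38 FPKM in control and 10.8, 11.4 and 12.1 FPKM in treated libraries, and its log2 fold change was 0.64 ± 0.09 (edgeR adjusted p = 0.00038).

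Gcsh encodes the H protein of glycine cleavage, the first carrier of the newly made lipoyl group. It fell from 32.6, 30.8 and 31.3 FPKM to 17.8, 17.9 and 17.9 FPKM (−0.86 ± 0.08, edgeR adjusted p = 1.9e-05). Its treated libraries lay closer together than its controls. Dlst, the lipoylated succinyltransferase core of 2-oxoglutarate dehydrogenase, fell from 21.9, 23.4 and 21.6 FPKM to 16.04, 15.1 and 14.7 FPKM (−0.58 ± 0.08, edgeR adjusted p = 0.000207).

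The other 3 overlapped between groups. Dlat, the lipoylated acetyltransferase core of pyruvate dehydrogenase, stood at 14.3, 11.5 and 11.7 FPKM in control and 11.8, 12.5 and 10.6 FPKM in treated libraries (−0.14 ± 0.09, edgeR adjusted p = 0.251). Lias, the lipoyl synthase that inserts sulfur into the octanoyl chain, stood at 6.22, 4.47 and 5.93 FPKM and at 4.98, 5.68 and 4.86 FPKM (−0.13 ± 0.12, edgeR adjusted p = 0.422). Lipt1, which moves the finished lipoyl group from the H protein to other enzymes, stood at 4.35, 3.51 and 2.96 FPKM and at 3.32, 3.24 and 2.95 FPKM (−0.22 ± 0.17, edgeR adjusted p = 0.317).

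The cuproptosis genes were set against the other 30 members as a description, and the difference was not tested. Their median log2 fold change was −0.14 and that of the other 30 was −0.27, a difference of 0.13. The SD of that difference over the 3 treated libraries was 0.12, which is the spread of single libraries and not of their mean. The median log2 difference from the control mean also varied between controls. In control 1, 2 and 3 it was 0.15, −0.02 and −0.06 for the 7 cuproptosis genes. For the other 30 it was −0.04, 0.07 and −0.01. The difference between the median fold changes was 0.01 without control 2. Of the 7, 2 rose and 2 fell, and of the 30, 3 rose and 16 fell. The summed level of the 7 was 97.9, 87.8 and 89.2 FPKM in control and 81.7, 89.1 and 77.8 FPKM in treated libraries, and the groups overlapped. That of the other 30 was 1347, 1391 and 1350 FPKM and 1131, 1114 and 1127 FPKM, with no overlap.

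**Figure D2:**
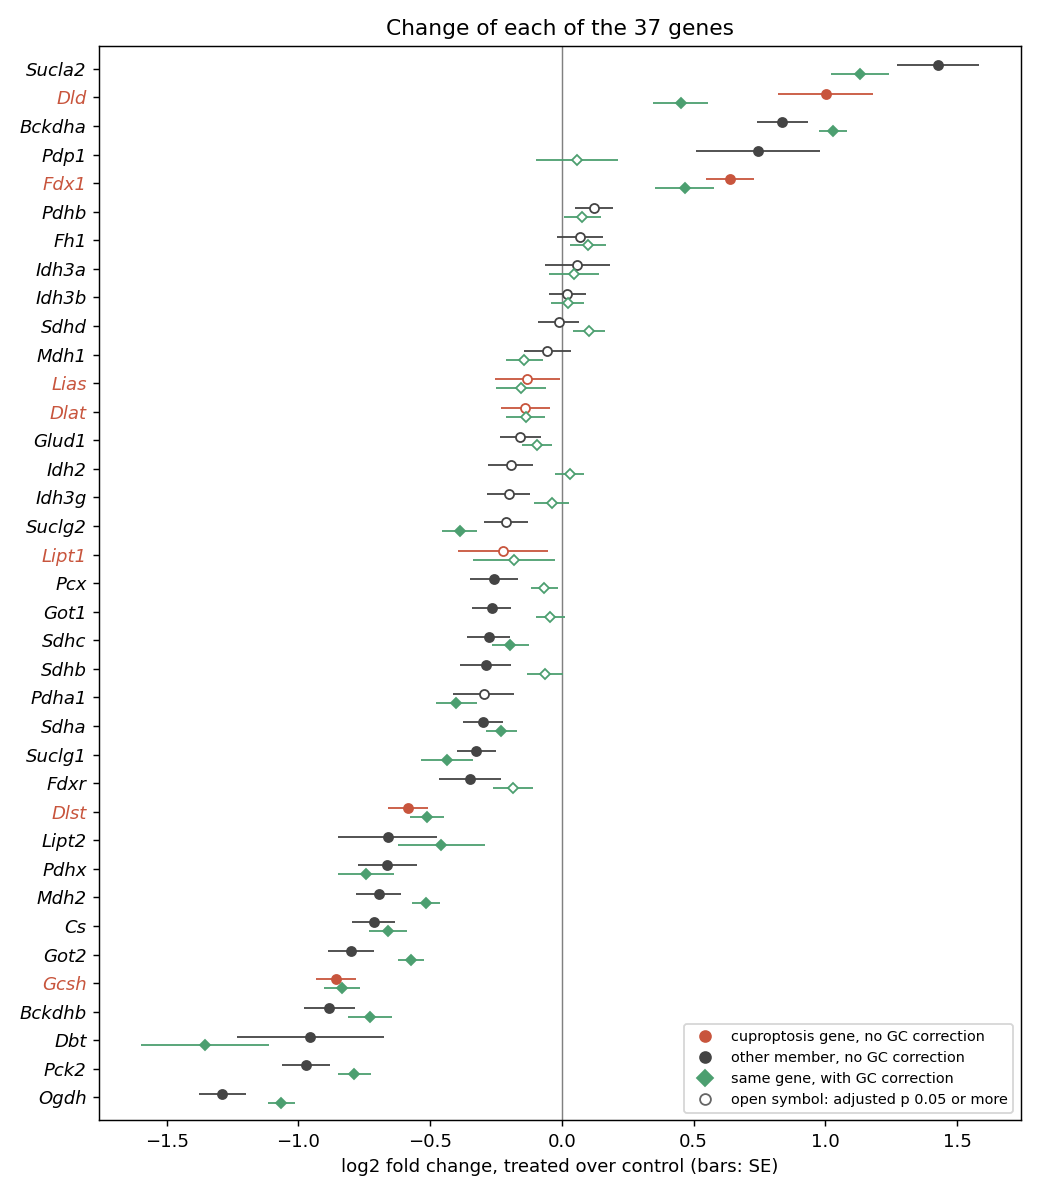
Log2 fold change, treated over control, of each of the 37 genes with its SE (circles, red for cuproptosis genes), and the same with a correction for GC content (green diamonds). Filled symbols passed the threshold. Sucla2, Dld, Bckdha, Pdp1 and Fdx1 stand to the right of 0, and with the correction Pdp1 moves to 0.06.

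The promoters of the 4 cuproptosis genes that changed are shown because both raised and lowered genes belong to the one lipoyl pathway. Each is the RefSeq window of 250 bases before to 50 after the start, in build GRCm38.p6, written 5′ to 3′ on the gene's strand. Capitals mark matches on either strand to CCAAT (the box bound by NF-Y), CCGGAAG (the core bound by ETS factors such as GABPA), the palindrome bound by NRF1, TGACGTCA (the cyclic AMP response element), TCAAGGTCA (estrogen-related receptors) and ACGTG (the hypoxia response core). The windows of the lowered genes Gcsh and Dlst hold 66.3% and 65.7% GC, and those of the raised genes Dld and Fdx1 47.0% and 52.0%.
Dld, chr12:31351422-31351721, minus strand: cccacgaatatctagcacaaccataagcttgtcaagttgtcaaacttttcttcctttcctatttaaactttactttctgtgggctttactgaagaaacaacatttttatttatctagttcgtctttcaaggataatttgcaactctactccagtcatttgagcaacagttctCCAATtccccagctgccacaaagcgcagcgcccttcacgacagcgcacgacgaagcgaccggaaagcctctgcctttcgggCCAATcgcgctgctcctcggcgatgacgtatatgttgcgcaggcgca
Fdx1, chr9:51963553-51963852, minus strand: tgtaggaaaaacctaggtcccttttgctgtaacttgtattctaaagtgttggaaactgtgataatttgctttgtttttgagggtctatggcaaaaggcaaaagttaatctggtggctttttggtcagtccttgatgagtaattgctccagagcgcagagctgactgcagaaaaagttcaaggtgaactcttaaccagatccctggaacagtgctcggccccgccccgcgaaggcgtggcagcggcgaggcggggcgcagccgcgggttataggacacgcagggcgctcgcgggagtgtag
Gcsh, chr8:116993449-116993748, minus strand: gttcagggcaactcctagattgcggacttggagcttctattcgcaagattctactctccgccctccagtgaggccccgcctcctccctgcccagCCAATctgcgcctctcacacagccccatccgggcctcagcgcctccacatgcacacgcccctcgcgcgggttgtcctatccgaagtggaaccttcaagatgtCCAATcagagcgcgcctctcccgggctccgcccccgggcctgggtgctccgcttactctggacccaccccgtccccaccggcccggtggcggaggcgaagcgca
Dlst, chr12:85110583-85110882, plus strand: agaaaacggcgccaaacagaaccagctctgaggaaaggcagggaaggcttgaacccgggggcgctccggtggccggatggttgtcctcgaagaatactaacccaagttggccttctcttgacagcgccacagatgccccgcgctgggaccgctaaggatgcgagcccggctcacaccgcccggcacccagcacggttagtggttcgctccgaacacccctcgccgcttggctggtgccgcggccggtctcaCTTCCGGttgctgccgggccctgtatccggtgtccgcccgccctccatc

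The Dld window and the Gcsh window each hold 2 CCAAT matches, the Dlst window holds 1 CCGGAAG match, and the Fdx1 window holds none of the 6. Of the 37 genes, 33 had a window in the RefSeq table, 4 of them with several starts. CCAAT was in 20 of the 33 (60.6%) against 41.1% of the 27025 genes whose windows were counted. Those include genes not tested here, while each of the 37 was tested. The 20 hold 12 genes that fell and 1 that rose, of 16 and 4 with a window. CCGGAAG was in 8 (24.2%) against 9.93%, and ACGTG in 8 (24.2%) against 21.8%. TGACGTCA was in the windows of Ogdh and Mdh2 (2.03% of the counted genes), TCAAGGTCA in that of Sdhd (0.466%), and the NRF1 palindrome in no member's window (1.07%). Matches to different motifs were counted separately where they overlap, and a gene with several starts counted once if any of its windows held the motif.

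In the pyruvate dehydrogenase complex, which turns pyruvate into acetyl-CoA, Pdha1, Pdhb and Dlat did not pass, Pdhx fell and the shared Dld rose. Pdhx, the lipoylated subunit that holds dihydrolipoyl dehydrogenase in the complex, fell from 6.23, 5.69 and 5.07 FPKM to 3.85, 3.76 and 3.40 FPKM (−0.66 ± 0.11, edgeR adjusted p = 0.00102). Pdha1, the X-linked subunit at the decarboxylating site, stood at 27.5, 23.3 and 24.8 FPKM in control and 21.03, 25.1 and 17.1 FPKM in treated libraries. It did not pass at −0.30 ± 0.12 (edgeR adjusted p = 0.0596), but passed without treated 2, at −0.45 (adjusted p = 0.00516), and with the GC correction described below, at −0.40. Pdhb, its partner subunit, stood at 22.9, 22.6 and 21.9 FPKM and at 24.2, 26.8 and 24.3 FPKM, which did not overlap but did not pass the test (0.12 ± 0.07, edgeR adjusted p = 0.191). Pdp1, the phosphatase that removes the inhibiting phosphates from the complex, is a transcript of low level whose call was the least stable of the 5 that rose. It was at 1.40, 0.889 and 1.35 FPKM in control and 2.26, 2.59 and 1.42 FPKM in treated libraries (0.75 ± 0.24, edgeR adjusted p = 0.0256), with treated 3 just above the highest control. The call was lost without control 2, control 3, treated 1 or treated 2 (adjusted p from 0.0545 to 0.119) and with the GC correction (0.06, adjusted p = 0.792).

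At the entry of the cycle, Cs fell and the isocitrate dehydrogenases did not pass. Cs, citrate synthase, went from 104, 111 and 102 FPKM to 70.3, 63.0 and 65.5 FPKM (−0.71 ± 0.08, edgeR adjusted p = 8.7e-05). The 3 subunits of the NAD-linked isocitrate dehydrogenase had log2 fold changes of 0.06 ± 0.12 (Idh3a, catalytic), 0.02 ± 0.07 (Idh3b) and −0.20 ± 0.08 (Idh3g, edgeR adjusted p = 0.0674). The NADP-linked enzyme gene Idh2 stood at 98.3, 111 and 106 FPKM and at 95.3, 91.5 and 96.2 FPKM (−0.19 ± 0.08, edgeR adjusted p = 0.0878). Of these 4 genes, 0 were called by edgeR, by DESeq2 or by limma on FPKM, and Idh2 and Idh3g were lower at an unadjusted p under 0.05. Idh3g passed without treated 3 and Idh2 without control 1. Idh3b overlaps Nop56 on the opposite strand (mean 39.5 FPKM, called lower), and the labels do not say whether the counting used the strand.

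The 2-oxoglutarate dehydrogenase complex had Ogdh and Dlst lower and the shared Dld higher. Ogdh, the decarboxylating subunit, showed the largest fall of the 37 genes, except with the GC correction, where Dbt fell further. It went from 33.4, 37.5 and 35.7 FPKM to 15.5, 13.9 and 15.4 FPKM (−1.29 ± 0.09, edgeR adjusted p = 4.5e-06). The next step, succinyl-CoA ligase, moved in both directions. Sucla2, the subunit that makes the ligase ADP-dependent, showed the largest rise, from 2.00, 1.87 and 2.19 FPKM to 5.20, 6.90 and 4.64 FPKM (1.43 ± 0.16, edgeR adjusted p = 6.4e-05). Suclg1, the alpha subunit shared by both forms, fell from 26.8, 28.2 and 27.2 FPKM to 22.2, 22.2 and 22.9 FPKM (−0.33 ± 0.07, edgeR adjusted p = 0.00499). Suclg2, the GDP-dependent subunit, stood at 12.1, 11.4 and 12.9 FPKM and at 11.03, 11.5 and 9.63 FPKM (−0.21 ± 0.08, edgeR adjusted p = 0.0589). It passed without treated 2 (−0.28, adjusted p = 0.0296) and with the GC correction (−0.39, adjusted p = 0.00117).

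Succinate dehydrogenase, which is also complex II of the respiratory chain, had 3 of its 4 subunit genes lower by small amounts. Of tested rows with a mean of at least 1 FPKM, 33.4% fell. The flavoprotein gene Sdha stood at 47.1, 46.1 and 49.9 FPKM in control and 38.5, 43.0 and 37.6 FPKM in treated libraries (−0.30 ± 0.08, edgeR adjusted p = 0.00912). The iron-sulfur subunit gene Sdhb went from a mean of 97.3 ± 2.80 to 81.5 ± 7.93 FPKM (−0.29 ± 0.10, adjusted p = 0.0338), and the membrane anchor gene Sdhc from 51.7 ± 2.58 to 43.8 ± 1.14 FPKM (−0.28 ± 0.08, adjusted p = 0.0176). The call on Sdhb was lost without control 2, control 3, treated 1 or treated 2 (adjusted p from 0.0737 to 0.132) and with the GC correction (−0.06), and that on Sdhc without treated 1 (adjusted p = 0.0669). Sdhd, the other membrane anchor, was at 96.0, 104 and 105 FPKM and at 110.1, 99.6 and 101 FPKM (−0.01 ± 0.08, edgeR adjusted p = 0.921), so the groups overlapped. Dlat and Sdhd both lie on the minus strand of chromosome 9, at 50545933 to 50571080 and 50507657 to 50515112 in the deposited coordinates.

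Of the last enzymes of the cycle, only Mdh2 passed. Mdh2, mitochondrial malate dehydrogenase, fell from 188, 207 and 195 FPKM to 126, 119 and 128 FPKM (−0.70 ± 0.08, edgeR adjusted p = 0.000118). Its cytosolic counterpart Mdh1 stood at 79.8 ± 5.71 and 78.7 ± 8.17 FPKM (−0.06 ± 0.09, edgeR adjusted p = 0.646), and fumarase, Fh1, at 16.02 ± 1.96 and 17.2 ± 0.872 FPKM (0.07 ± 0.09, edgeR adjusted p = 0.551).

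Beyond Fdx1, Lias and Lipt1, lipoyl synthesis draws on Fdxr, the reductase that passes electrons from NADPH to ferredoxins, and Lipt2, which places the octanoyl precursor on the H protein. Lipt2 fell from 2.98, 3.41 and 3.44 FPKM to 2.60, 1.895 and 1.899 FPKM (−0.66 ± 0.19, edgeR adjusted p = 0.0154), with treated 1 nearest to the controls. Fdxr went from 8.46, 8.48 and 7.91 FPKM to 6.99, 5.83 and 7.17 FPKM (−0.35 ± 0.12, edgeR adjusted p = 0.0336). The call on Fdxr was lost when any library but treated 3 was left out (adjusted p from 0.0514 to 0.083) and with the GC correction (−0.18, adjusted p = 0.0732). Counting Dlat, Dlst, Dbt, Gcsh and Pdhx together as the lipoyl-bearing proteins, 4 of 5 fell, and Dlat did not pass. Of all tested rows 23.5% fell, and of those with a mean of at least 1 FPKM 33.4%. The call on Dbt held in 20 of 24 alternative fits. The summed level of the 5 was 76.0, 72.1 and 70.4 FPKM in control and 49.8, 49.7 and 47.0 FPKM in treated libraries, with no overlap. Gcsh (31.6 to 17.8 FPKM on average) and Dlst (22.3 to 15.3) were the largest parts of that sum.

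The branched-chain complex, which oxidises the keto acids of leucine, isoleucine and valine, had its 2 decarboxylating subunits change in opposite directions. Bckdha, the alpha subunit, rose from 34.6, 36.9 and 35.7 FPKM to 65.4, 59.1 and 71.9 FPKM (0.84 ± 0.10, edgeR adjusted p = 8.5e-05). Bckdhb, the beta subunit, fell from 15.1, 13.3 and 14.6 FPKM to 7.86, 8.00 and 8.01 FPKM (−0.88 ± 0.10, edgeR adjusted p = 6.9e-05). Both calls held in each of the 27 alternative fits. Dbt, the lipoylated core of the complex, had the fewest counts of the 37 genes and went from 1.05, 0.679 and 0.648 FPKM to 0.323, 0.545 and 0.381 FPKM. Its log2 fold change of −0.95 ± 0.28 (edgeR adjusted p = 0.0178) did not pass without control 1, treated 1 or treated 3 (adjusted p = 0.0637, 0.0717 and 0.059).

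Among the enzymes that feed or drain the cycle, 4 of 5 fell and Glud1 did not pass. With the GC correction 2 of the 5 fell. Of all tested rows 23.5% fell without that correction, and of those with a mean of at least 1 FPKM 33.4%. Pck2, the mitochondrial phosphoenolpyruvate carboxykinase, went from 34.8, 37.7 and 35.4 FPKM to 18.8, 17.5 and 20.1 FPKM (−0.97 ± 0.09, edgeR adjusted p = 2.5e-05). Got2, the mitochondrial aspartate aminotransferase, went from 113, 120 and 107 FPKM to 67.8, 63.6 and 68.6 FPKM (−0.80 ± 0.09, edgeR adjusted p = 5.9e-05). The row Got2-ps1, a pseudogene of it, stood at 5.06 to 10.15 FPKM in control and 5.24 to 6.93 in treated libraries, and fragments may have been split between both. The cytosolic aminotransferase Got1 changed less, from 61.1 ± 2.81 to 52.2 ± 1.54 FPKM (−0.27 ± 0.07, edgeR adjusted p = 0.0151), and was at −0.04 with the GC correction. Pyruvate carboxylase, Pcx, which makes oxaloacetate from pyruvate, went from 16.4 ± 0.233 to 14.0 ± 1.26 FPKM (−0.26 ± 0.09, adjusted p = 0.0395). Its call held without treated 3 but was lost without any other library (adjusted p from 0.0522 to 0.103) and with the GC correction, and the gene overlaps Lrfn4 on the opposite strand (mean 17.8 FPKM, called lower). Glud1, glutamate dehydrogenase, stood at 36.7 ± 2.71 and 33.7 ± 3.08 FPKM (−0.16 ± 0.08, edgeR adjusted p = 0.126).

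Since FPKM is scaled to length, levels of partner genes can be set side by side within a library. Ratios were computed for 17 pairs chosen with the values known, from FPKM without the GC correction described below. An exact 2-sided permutation test of 3 libraries against 3 cannot give a p below 0.1, and after Benjamini-Hochberg adjustment over the 17 pairs the smallest value was 0.121. There were 2.29, 2.78 and 2.44 Bckdha per Bckdhb in the control libraries and 8.32, 7.38 and 8.97 in the treated ones (exact permutation p = 0.1). Dld per Ogdh went from 0.337, 0.192 and 0.234 to 1.10, 1.68 and 0.951. In uncorrected FPKM the shared dehydrogenase was thus below the decarboxylase in each control library and near or above it after treatment. The transcripts differ in GC content, at 40.6% for Dld and 52.5% for Ogdh. Their log2 fold changes were 1.002 and −1.29 without the GC correction and 0.45 and −1.07 with it, so part of this shift depends on the correction. Sucla2 per Suclg2, the ADP-dependent against the GDP-dependent ligase subunit, went from 0.166, 0.164 and 0.170 to 0.471, 0.599 and 0.482.

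The mitochondrial form fell against the cytosolic form in both enzyme pairs of the malate-aspartate shuttle. Got2 per Got1 was 1.86, 1.87 and 1.83 in control and 1.27, 1.21 and 1.36 in treated libraries, and Mdh2 per Mdh1 was 2.19, 2.63 and 2.61 and then 1.69, 1.35 and 1.75. Fdx1 per Fdxr, the ferredoxin against its reductase, went from 0.861, 0.812 and 0.932 to 1.55, 1.96 and 1.69. Each of these ratios had no overlap between groups, at the same exact permutation p of 0.1. In contrast, Suclg1 per Suclg2 overlapped between groups (2.27 ± 0.185 and 2.11 ± 0.240, mean ± SD, n = 3, exact permutation p = 0.4), as did Dlat per Pdha1 (0.495 ± 0.0233 and 0.560 ± 0.0624, exact permutation p = 0.2). These ratios also lack the GC correction. With it, the log2 fold changes were −0.57 for Got2 and −0.04 for Got1, and −0.52 for Mdh2 and −0.14 for Mdh1. Those of Fdx1 and Fdxr were 0.47 and −0.18.

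**Figure D3:**
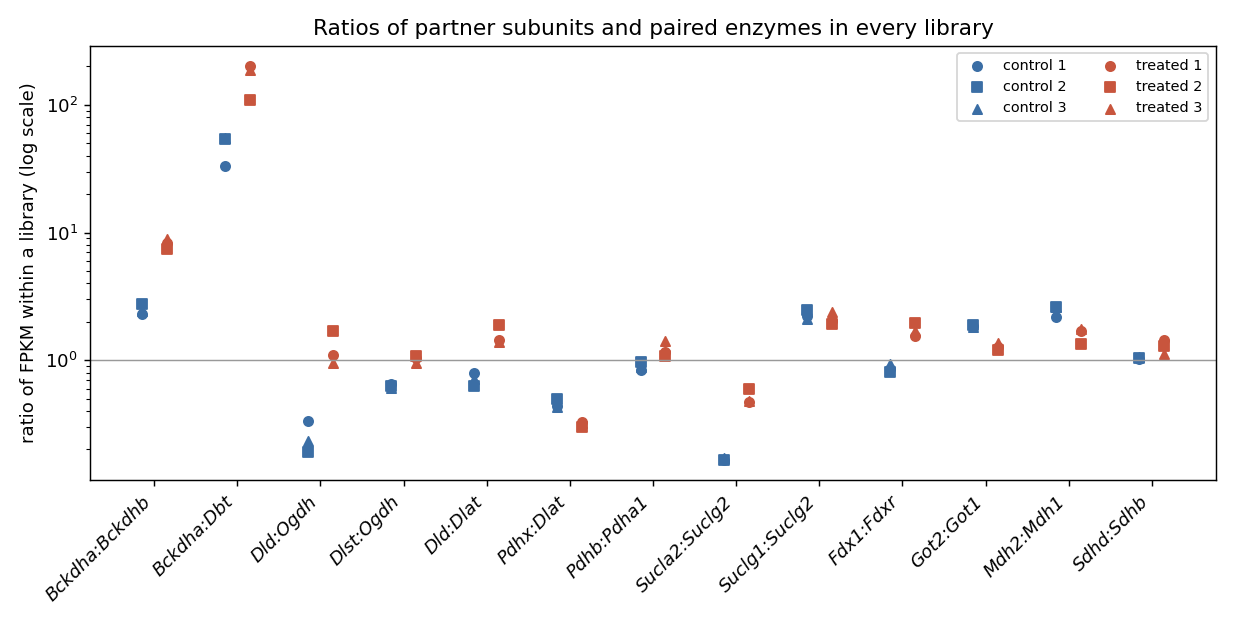
Ratio of FPKM within each library, on a log scale, for 13 of the 17 pairs, with control libraries in blue and treated libraries in red. Bckdha per Bckdhb rises from 2.50 to 8.22 on average and Sucla2 per Suclg2 from 0.167 to 0.518, while Suclg1 per Suclg2 overlaps between groups.

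Fold changes in these data were higher for transcripts of low GC content, and the members that rose were mostly of this kind. GC content was taken from the longest GENCODE M21 transcript of each gene. Across the 37 genes, which share libraries and are not independent, the Spearman correlation of fold change with GC content was −0.37, against −0.27 across 15760 tested rows. Among the 10 members of lowest GC content (39.2% to 45.8%) 4 rose and 3 fell, and among the 10 of highest GC content (51.0% to 60.0%) 1 rose, Bckdha, and 8 fell. The trend was strongest in treated 2. For the 10 of lowest GC content, the median log2 difference from the control mean was 0.02 in treated 2. It was −0.18 in treated 1 and in treated 3. For the 10 of highest GC content it was −0.49 in treated 2, −0.35 in treated 1 and −0.23 in treated 3. In control 1, 2 and 3 it was 0.09, −0.05 and −0.03 for the lowest and −0.08, 0.11 and −0.02 for the highest. Control 1 thus had the 10 of lowest GC content above the 10 of highest as well, and control 2 had them below.

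With a correction for GC content fitted in each library, 4 members rose and 16 fell, where 49.0% of 15760 rows were called, 25.6% higher and 23.4% lower. Of the 18 that fell without the correction, 14 still fell. Sdhb, Fdxr, Pcx and Got1 no longer passed, and Suclg2 and Pdha1 passed in their place. The rise of Dld was smaller, at 0.45 ± 0.10 (edgeR adjusted p = 0.00551), as were those of Fdx1 (0.47 ± 0.11, adjusted p = 0.00693) and Sucla2 (1.13 ± 0.11). Bckdha, of 57.9% GC, went the other way, to 1.03 ± 0.05, and the fall of Dbt, of 42.1% GC, to −1.35 ± 0.24. The difference between the medians of the cuproptosis genes and the other 30 was 0.01 with the correction.

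**Figure D4:**
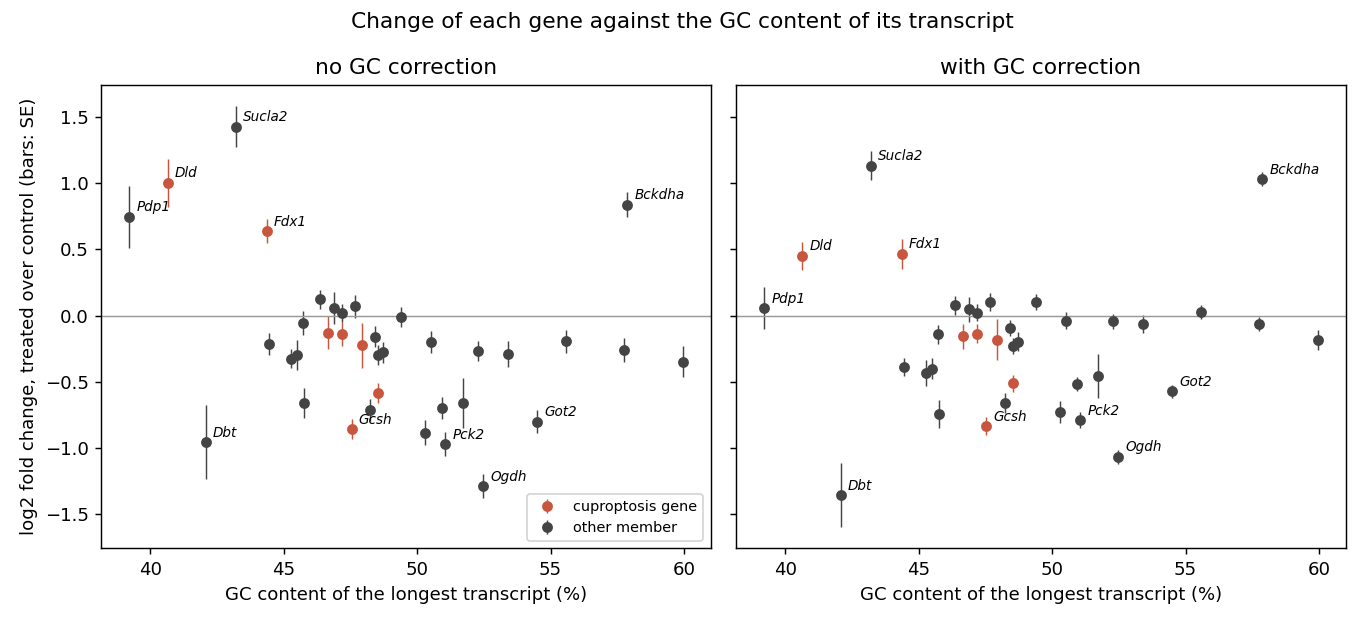
Log2 fold change, treated over control, with its SE against the GC content of each gene's longest transcript, without (left) and with (right) the GC correction. Cuproptosis genes are red. On the left Pdp1, Dld and Sucla2, of 39.2% to 43.2% GC, stand above 0, and on the right Pdp1 stands at 0.06 and Dld at 0.45.

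Other genes of the pathway, from lists of related genes, moved in both directions around the members. As background to each of these short lists, 23.0% of all tested rows rose and 23.5% fell. Among rows with a mean of at least 1 FPKM it was 25.7% and 33.4%. Of 8 genes for pyruvate import and for the regulation of pyruvate dehydrogenase, 7 were tested, 3 rose and 1 fell. Pdk1, a kinase that inhibits the complex, rose by a log2 fold change of 1.13 ± 0.11 (3.80 ± 0.257 to 8.53 ± 1.29 FPKM), the carrier subunit gene Mpc2 by 0.92 ± 0.10 (1.68 ± 0.0344 to 3.27 ± 0.1002) and Pdk3 by 0.25 ± 0.08. Pdpr, the regulatory subunit of the phosphatase, passed as lower (−0.52 ± 0.18, adjusted p = 0.0389), but its groups overlapped in FPKM and the call held in 10 of 27 alternative fits. It was lost without control 1, control 3, treated 1 or treated 3, and that on Pdk3 without control 1, control 3 or treated 1. The most abundant gene of the list that did not pass was Mpc1, the carrier's other subunit, at 11.3 ± 1.47 and 13.6 ± 0.889 FPKM (edgeR adjusted p = 0.111), which passed with the GC correction (0.27). Pdk1 and Mpc2 were called in each of the 27 alternative fits.

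Of 10 neighbouring enzymes, 9 were tested, 1 rose and 5 fell. The cytosolic aconitase gene Aco1 fell (−0.82 ± 0.07), while the mitochondrial malic enzyme gene Me2 rose (0.47 ± 0.08). Me1, Me3 and Ogdhl also fell, by 0.49, 0.35 and 0.26 on the log2 scale, and Ogdhl was at −0.04 with the GC correction. The call on Me3 was lost when any library but treated 2 was left out, and that on Ogdhl without control 2, control 3, treated 1 or treated 2. Acly, which splits citrate in the cytosol, stood at 43.1 ± 1.46 and 41.0 ± 3.13 FPKM (edgeR adjusted p = 0.275). Of 4 assembly factors of succinate dehydrogenase, 3 rose and 1 fell, with Sdhaf4 at 0.92 ± 0.19, Sdhaf3 at 0.59 ± 0.21, Sdhaf2 at 0.32 ± 0.09 and Sdhaf1 at −0.45 ± 0.10, and with the GC correction 1 rose (Sdhaf4) and 1 fell (Sdhaf1). Without that correction, the call on Sdhaf3 was lost without control 1, control 3, treated 1 or treated 2, and that on Sdhaf2 without control 3 or treated 1.

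Transcripts of genes that supply the lipoyl precursor and iron-sulfur clusters also moved in both directions. Of 6 genes of mitochondrial fatty acid synthesis, which makes the octanoyl chain, 2 rose and 2 fell. The acyl carrier protein gene Ndufab1 (0.60 ± 0.09) and the reductase gene Cbr4 (0.62 ± 0.22) rose, and the reductase gene Mecr (−0.74 ± 0.11) and the transferase gene Mcat (−0.37 ± 0.11) fell. With the GC correction 1 rose (Ndufab1) and 1 fell (Mecr), and Cbr4 (0.26, adjusted p = 0.238) and Mcat (−0.20, adjusted p = 0.0557) did not pass. The call on Cbr4 was also lost when any library but control 1 was left out, and that on Mcat without control 3 or treated 1. Hsd17b8 stood at 7.503 ± 2.35 and 5.85 ± 1.71 FPKM (edgeR adjusted p = 0.272). Of 6 late iron-sulfur factors, 1 rose and 3 fell, with Iba57 at −1.16 ± 0.19, Nfu1, which delivers a cluster to lipoyl synthase, at −0.42 ± 0.08, Glrx5 at −0.25 ± 0.09, and Isca2 at 0.27 ± 0.08. With the GC correction 1 rose (Isca2) and 2 fell (Iba57 and Nfu1), and Glrx5 was at −0.02 (adjusted p = 0.786). The call on Glrx5 was lost without control 1, control 2, treated 1 or treated 2, and that on Isca2 without control 1, control 3, treated 1 or treated 3. Bola3 stood at 8.74 ± 0.942 and 9.24 ± 0.692 FPKM (edgeR adjusted p = 0.761).

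Around the branched-chain and glycine complexes, 4 of 6 genes fell, and Amt and Ppm1k did not pass. Bcat1, the cytosolic aminotransferase of branched-chain amino acids, fell from 14.4 ± 0.871 to 4.84 ± 0.0745 FPKM (−1.61 ± 0.08), Bcat2, the mitochondrial one, by 0.58 ± 0.09, and Bckdk, the kinase that inhibits the branched-chain complex, from 40.0 ± 1.38 to 20.5 ± 1.60 FPKM (−0.996 ± 0.09). Gldc, the glycine decarboxylase, was low and passed as lower, at 0.736 ± 0.109 and 0.522 ± 0.0570 FPKM (edgeR adjusted p = 0.0449), but the call held in 4 of 24 alternative fits. The GC correction ended it (−0.31, adjusted p = 0.167) and left 3 genes of the list lower. Leaving out control 1, control 2, treated 1 or treated 2 ended it as well. Amt, of the glycine cleavage system, was low in both groups, at 0.332 ± 0.166 and 0.376 ± 0.0544 FPKM (edgeR adjusted p = 0.760). Of 7 malate-aspartate carriers and glutamine enzymes, 4 fell, among them the aspartate-glutamate carriers Slc25a12 (−0.85 ± 0.07) and Slc25a13 (−0.81 ± 0.10) and the alanine aminotransferase gene Gpt2 (−1.08 ± 0.08). The remaining fall was that of Gls2 (−0.77 ± 0.17), a glutaminase gene. Slc25a11, the oxoglutarate carrier, stood at 57.3 ± 4.27 and 57.9 ± 3.47 FPKM (edgeR adjusted p = 0.876) and passed with the GC correction at 0.21.

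Of the 5 further genes linked to cuproptosis, 3 were tested and 0 were called by edgeR, by DESeq2, by limma on FPKM or at an unadjusted p under 0.05. The copper importer gene Slc31a1 stood at 5.53 ± 0.458 and 5.82 ± 0.335 FPKM (0.04 ± 0.10, edgeR adjusted p = 0.769), and the copper exporter gene Atp7a at 0.275 ± 0.0432 and 0.256 ± 0.0759 FPKM. Atp7b, the other exporter, was listed at 0 in the control libraries and had too few counts to be tested.

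In the deposited coordinates, of a build the labels do not name, the genes the results turn on most lie as follows. Dld (ENSMUSG00000020664) at 31381276 to 31401452 on chromosome 12 and Dlst (ENSMUSG00000004789) at 85157607 to 85181619 on chromosome 12 share a chromosome. Fdx1 (ENSMUSG00000032051) at 51854606 to 51874846 on chromosome 9 and Bckdhb (ENSMUSG00000032263) at 83807198 to 84006293 on chromosome 9 share another. The others are Gcsh (ENSMUSG00000034424) at 117708549 to 117720276 on chromosome 8, Ogdh (ENSMUSG00000020456) at 6241633 to 6306642 on chromosome 11, Sucla2 (ENSMUSG00000022110) at 73762759 to 73833223 on chromosome 14 and Bckdha (ENSMUSG00000060376) at 25329371 to 25358406 on chromosome 7. Of the 37 genes, 14 overlap another row, and 3 (Idh3b, Lipt1 and Pcx) overlap a row of at least 1 FPKM.

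In the authors' own annotation column, the KEGG citrate cycle term held 31 rows, 23 of them members. Of 28 rows tested, 2 rose and 13 fell, with a median log2 fold change of −0.24. The KEGG term for lipoic acid metabolism held 17 rows, 13 of them members, and of these 17 tested rows 2 rose and 8 fell, with a median of −0.26. Of all tested rows 23.0% rose and 23.5% fell. These terms share most of their genes with the 37 and are not separate evidence.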

How the data were processed

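Per the labels' protocols, poly(A) RNA was made into strand-marked (dUTP) libraries, which were read in pairs on an Illumina NovaSeq. Per the file headers, the authors deposited FPKM values and counts per gene and library. The counts were deposited as whole numbers and are used as estimated counts. Tools listed, with no role given, in the submitters' processing notes are HISAT2 2.2.1, StringTie 2.1.6, cutadapt 1.9, edgeR and DESeq2. For the aligned build, nothing is stated in the labels. The deposited start equals that of GENCODE M21 (GRCm38) for 1 of the 37 genes, so coordinates are printed as deposited and kept apart from those of the promoters, which come from RefSeq.

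The counts of 3 control and 3 treated libraries, grouped by sample title, were tested with edgeR 4.0.16 in R 4.3.3 (filterByExpr, TMM scaling, quasi-likelihood F test, Benjamini-Hochberg adjustment over 16212 of 25407 rows). Each SE is the absolute log2 fold change over the square root of F. The GC correction subtracts, in each library, a loess fit (span 0.4) of log2 count on GC content, available for 97.2% of tested rows. Other alternatives were DESeq2 1.42.0, limma 3.58.1 on log2(FPKM + 1) and log2(FPKM + 0.1), other scalings and filters, counts divided by 4, protein-coding rows, a replicate block, and each library left out. The fits that leave out a library with the GC correction, and both libraries numbered 2, were chosen after seeing the data. Members and lists were chosen with earlier results of these data known. Each member is named; values in every library are given for the 7 cuproptosis genes and, per role, for the members with the largest change and the most abundant one, and others were added after their values were seen. Of each related list, up to 3 called genes with the smallest p and the most abundant gene not called are named, with others added after their values were seen. Some related genes are not reported here. Cdkn2a, Cd3e and Adgre1 are not analysed here.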

Additional observations from a re-analysis of the deposited data

How the results depend on the processing

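Across 27 alternative fits the number of the 37 genes that rose was 4 to 6 and the number that fell was 12 to 19, and no gene was called in both directions. The 2 called rises (Dld, Fdx1) and 2 called falls (Gcsh, Dlst) of cuproptosis genes were found in each fit, with Lias as a further fall without both libraries numbered 2 and, with the GC correction, without control 2. The difference between the median of the cuproptosis genes and that of the other 30, 0.13, was 0.0089 with the GC correction, 0.012 with the replicate block and the GC correction together, and −0.015 without both libraries numbered 2. With the GC correction it was −0.0106 without control 3, 0.01019 without treated 1, −0.0186 without treated 2 and −0.0077 without treated 3, and without control 2 and no such correction it was 0.0098. With 1 library left out it ran in all from −0.038 (without control 2, GC correction) to 0.22 (without control 1). Pdp1, which rose without the correction, was at −0.037 without control 2 and −0.065 without treated 1 when the GC correction was applied; transcripts of low GC content, such as that of Pdp1, are those it lowers. Upper quartile scaling moved the median of all tested rows by 0.12, and 4688 rows then rose and 3028 fell, against 3735 and 3813; of the 37 genes 6 rose and 12 fell. Library numbers did not pair the samples (correlation of deviations from the group means 0.04, −0.10 and 0.0065 for numbers 1, 2 and 3). With the replicate block, 4 genes rose and 13 fell, and Sdhb, Sdhc, Pdp1, Fdxr, Pcx and Got1 did not pass. Dbt and Lipt2, the members with the fewest counts, had the largest SE among the falls.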
